A study of Mus musculus with 6 samples.

Results

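Transcripts of 9 genes of the bone morphogenetic protein (BMP) pathway were compared between wild-type mouse embryonic stem cells and cells of the same line lacking E-cadherin. The genes were the ligand gene Bmp4, the receptor genes Bmpr1a and Bmpr2, the signal transducer genes Smad1 and Smad5, the inhibitor gene Smad6, and the target genes Id1, Id2 and Id3. They were picked by symbol among the 55401 genes of the count table, with earlier results of these data known, and all 9 had enough counts to be tested. Both groups belonged to V6.5, a hybrid mouse embryonic stem cell line. The first group was WT and the second was Cdh1-/-, with both copies of the E-cadherin gene disrupted, and each had 3 libraries of total RNA, named A, B and C. The labels give no treatment, culture medium or clone number and do not say whether the libraries came from separate cultures, so the p-values measure only the spread between these libraries.

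BMP ligands bring type I and type II receptor kinases together at the cell surface. The type I receptor then phosphorylates Smad1, Smad5 or Smad9, which enter the nucleus with Smad4 and act on genes such as those of the Id family. Id proteins carry a helix-loop-helix region without a DNA-binding part and hold E proteins away from DNA, and in mouse embryonic stem cells BMP4 acting through Id genes is known to support self-renewal together with LIF.

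The libraries held between 18020719 and 23381942 counts. Levels are CPM, counts scaled to library size by the TMM method, given as mean ± SD of 3 libraries, and a level of 6 counts or fewer in a library (0.262 to 0.332 CPM) was not told apart from 0. Cdh1 itself, which checks the labels, lay between 537 and 571 CPM in WT and between 166 and 183 CPM in Cdh1-/-. The summed level of 10 embryonic stem cell markers was 5144 to 5609 CPM in WT and 5724 to 6937 CPM in Cdh1-/-, and none of the 10 was at 0. Of the 10, 2 were called higher, Tdgf1 (log2 fold change 0.63, adjusted p 0.000175 in edgeR's quasi-likelihood test) and Fgf4 (0.29, adjusted p 0.0352), and 0 lower. Over all 17325 tested genes 7.6% were called higher and 5.71% lower. Chromosome 14, which carries Bmp4 and Bmpr1a, was shifted upward in Cdh1-/-, with a median log2 fold change of 0.53 for its 622 tested genes, and chromosome 1, which carries Bmpr2, was shifted downward, with -0.33 for 1002 genes.

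Promoter sequences are shown for the member with the largest change and for the members with GGCGCC or CAGAC, short motifs bound by Smad proteins, before a RefSeq start site. Of the 9 genes, 8 had a promoter in the RefSeq table for GRCm38.p6. The exception was Id1, whose promoter was therefore not searched. The 250 bases before each start site were searched on both strands for GGCGCC, a site of Smad1 and Smad5, for CAGAC, a site of Smad4, for the GC-rich site GCCGNCGC, and for CTTTGA, the core of TCF sites. GGCGCC was found in 9.59% of all 32851 promoters, CAGAC in 42.2%, GCCGNCGC in 6.89% and CTTTGA in 13.8%. The windows of the members held 60% to 78.8% G and C bases, against a median of 52.4% over all promoters. Smad5 was also searched in several windows. The shares over all promoters are thus not a matched background for GGCGCC and GCCGNCGC. GGCGCC can overlap GCCGNCGC. The Bmp4 promoter (chr14:46390670-46390919, minus strand) held none of these motifs and is printed whole, 5′ to 3′, ending at the base before the start site. The other lines give a site in capitals with its flanks, on the strand of the gene.
Bmp4 promoter: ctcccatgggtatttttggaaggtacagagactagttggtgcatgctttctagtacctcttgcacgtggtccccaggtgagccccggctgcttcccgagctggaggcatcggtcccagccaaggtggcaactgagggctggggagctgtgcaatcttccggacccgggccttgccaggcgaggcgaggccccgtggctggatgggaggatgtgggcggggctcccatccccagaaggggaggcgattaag
Bmpr1a GGCGCC site (chr14:34502729-34502754, minus strand): cgcgcgcgccGGCGCCtcttgctcgc
Bmpr2 GGCGCC site (chr1:59764164-59764189, plus strand): ccggcggccgGGCGCCgctgcctgcc
Id2 GGCGCC site (chr12:25096308-25096333, minus strand): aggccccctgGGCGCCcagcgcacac
Smad5 GGCGCC site (chr13:56703023-56703048, plus strand): ccggcgagcgGGCGCCgagcgcttgt
Smad5 CAGAC site (chr13:56703637-56703661, plus strand): tgcccaagttCAGACtccatcccct
Id3 upstream CAGAC site (chr4:136143645-136143669, plus strand): tcctcggcgtCAGACcagcctaagg
Id3 downstream CAGAC site, read as GTCTG (chr4:136143744-136143768, plus strand): acccttggcgGTCTGttttgaataa

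The Id2 site began 231 bases before the RefSeq start site, the Bmpr1a site 198 and the Bmpr2 site 105. The Id3 sites began 167 and 68 bases before it. Smad5 has 3 start sites in the table. Its GGCGCC site began 19 bases before the start at 56703052 and its CAGAC site 21 bases before the start at 56703668. RefSeq start sites are not the outermost gene ends of the annotation used for counting. In that annotation the printed Bmpr2 site, both Id3 sites and the Smad5 GGCGCC site lie wholly in exons of their own gene, so those bases can be transcribed. The Id2 site and the Smad5 CAGAC site lie within the span of their gene but outside its exons, the latter with 21 of its 25 bases in an exon of another gene, and the Bmpr1a site lies outside its gene. GCCGNCGC had 3 matches before the Bmpr1a start, beginning 203, 201 and 9 bases before it. It had 3 before the Smad5 start at 56703010, beginning 44, 38 and 22 bases before it, and the same 3 lie before the start at 56703052. The windows of Smad1 and Smad6 held none of the 4 motifs. These matches describe the letters of the windows, and the RNA counts carry no measurement of binding there.

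Of the 9 members, 3 were called higher in Cdh1-/- and 0 lower at an adjusted p under 0.05 in edgeR's quasi-likelihood test, against 7.6% of all 17325 tested genes called higher and 5.71% called lower. Without adjustment, 4 members had a p under 0.05, as did 4622 of all 17325 tested genes. In the table as a whole 13.3% of genes were called in either direction. Bmp4 rose most, Bmpr1a and Id1 followed, and the median log2 fold change of the 9 was 0.28, against -0.01 over all tested genes. In 4 members every Cdh1-/- library lay above every WT library, which held for 15.7% of all tested genes.

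**Figure D1:**
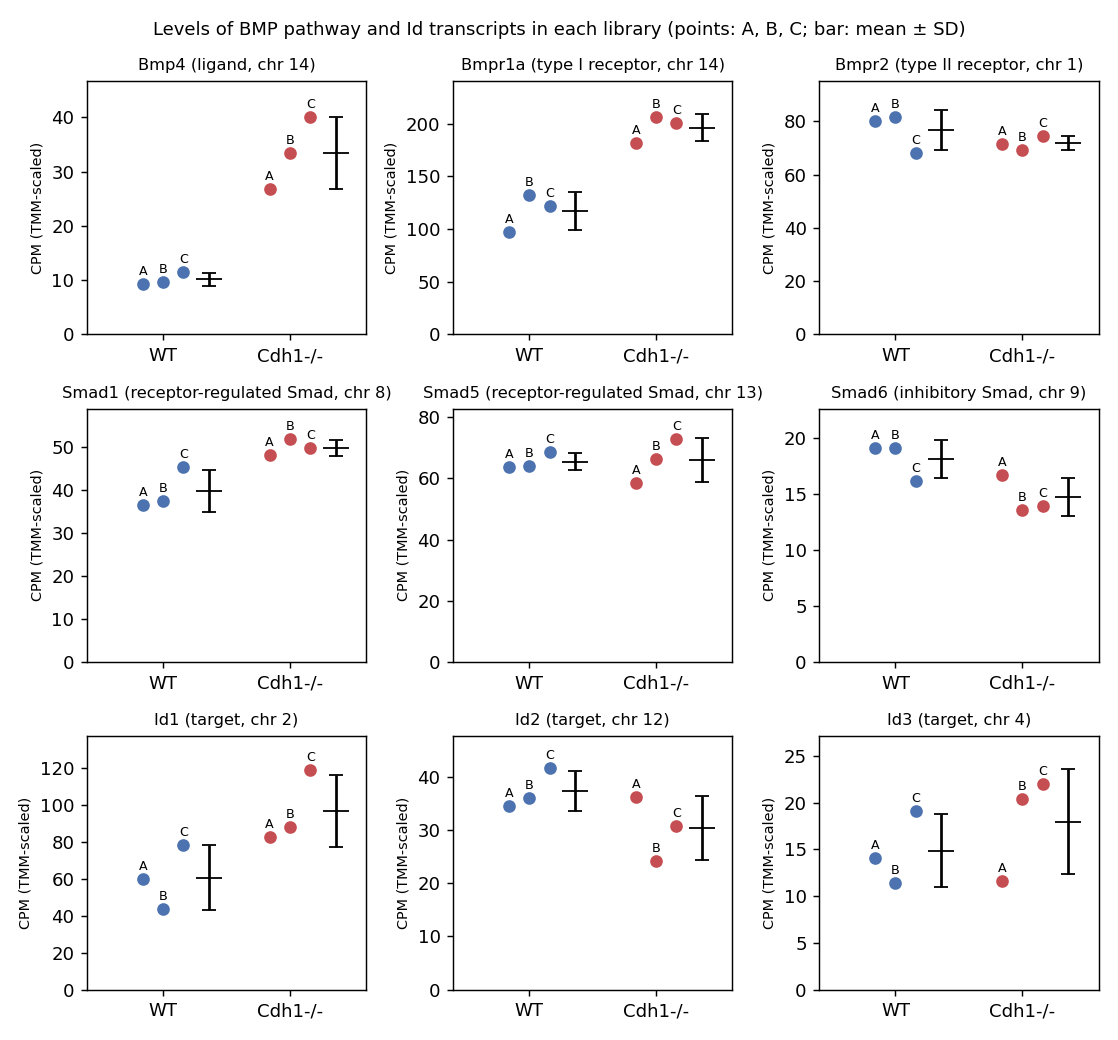
Level of each of the 9 transcripts in every library, in TMM-scaled CPM on linear axes that start at 0. Points are libraries A, B and C, and bars give the mean ± SD of 3. The groups are apart for Bmp4, Bmpr1a, Smad1 and Id1 and overlap for the other members, with Bmp4 at 9.23 to 11.6 CPM in WT and 26.8 to 40.1 CPM in Cdh1-/-.

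Bmp4 (ENSMUSG00000021835.15, chromosome 14, 46383520 to 46390669 in GRCm38) encodes a secreted ligand that binds the type I receptors. In WT it stood at 9.23 CPM in replicate A, 9.75 CPM in B and 11.6 CPM in C. In Cdh1-/- it stood at 26.8 CPM in replicate A, 33.5 CPM in B and 40.1 CPM in C, and values below keep this order of replicates. The lowest Cdh1-/- library stood well above the highest WT library. The mean rose from 10.2 ± 1.22 CPM to 33.5 ± 6.65 CPM, 3.29 times the WT level, with a log2 fold change of 1.72 (95% interval 1.38 to 2.06, adjusted p 8.5e-06 in edgeR's quasi-likelihood test). This fold change was the 10th highest among the 622 tested genes of chromosome 14. With the median of that chromosome removed from each library, Bmp4 kept a log2 fold change of 1.18 (95% interval 0.83 to 1.52, adjusted p 0.000272), which is 2.26-fold. In RNA from bulk cultures, more cells of a type and more RNA per cell cannot be told apart.

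Markers of primitive endoderm, an early lineage that can arise in stem cell cultures, moved in the same direction. All 7 tested markers of the 8 listed were called higher (Gata4, Gata6, Sox17, Sox7, Foxa2, Dab2 and Pdgfra), against 7.6% of all tested genes. Afp had at most 6 counts in every library. Foxa2 had at most 6 counts in every WT library, so its WT level was not told apart from 0. The groups of Dab2 overlapped, with WT replicate B at 22.0 CPM and Cdh1-/- replicate A at 19.7 CPM. The summed level of the list ran to 32.4 CPM, 45.9 CPM and 54.4 CPM in WT, against 90.04 CPM, 108 CPM and 170 CPM in Cdh1-/-. The order of the libraries by this sum was also their order by Bmp4. Gata4 and Sox7 lie on chromosome 14, as Bmp4 does. Without these 2 the sum was 20.6 CPM, 36.07 CPM and 35.5 CPM in WT and 54.4 CPM, 66.0 CPM and 106 CPM in Cdh1-/-, so the groups stayed apart but WT replicates B and C changed places in the order. With the chromosome medians removed all 7 were still called, with log2 fold changes of 1.16 for Gata4 and 1.64 for Sox7. Of the 4 tested fibroblast markers 1 was called lower, and Fap was at 0 in every library. The fibroblast list summed to 35.5 CPM, 23.4 CPM and 18.8 CPM in WT and 21.6 CPM, 11.9 CPM and 10.1 CPM in Cdh1-/-. Replicate A was thus the highest in both groups, and the groups overlapped. The 8 trophoblast markers summed to 21.2 to 29.1 CPM in WT and 19.9 to 27.9 CPM in Cdh1-/-. Of the 6 tested, 1 was called lower, Tfap2a (log2 fold change -1.99, adjusted p 0.00187), 0 were called higher, and their median log2 fold change was -0.44. The part of these cells in the level of Bmp4 or of the Id genes was not tested.

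Bmpr1a (ENSMUSG00000021796.15, chromosome 14, 34410734 to 34502687) encodes a type I receptor for BMP4. It was measured at 96.7 CPM, 132 CPM and 121 CPM in WT and 182 CPM, 206 CPM and 200 CPM in Cdh1-/-. All Cdh1-/- libraries were above all WT libraries. The mean went from 117 ± 18.04 CPM to 196 ± 12.9 CPM, a log2 fold change of 0.75 (95% interval 0.52 to 0.98, adjusted p 0.000332 in edgeR's quasi-likelihood test). Unlike Bmp4, Bmpr1a stood close to the rest of its chromosome, 0.22 above the chromosome 14 median, and 51.4% of the tested genes there were called. With the chromosome median removed its log2 fold change was 0.21 (95% interval -0.02 to 0.44, adjusted p 0.264), so the call was lost. In that fit 2 of the 9 members were called, Bmp4 and Id1, against 9.85% of all tested genes. Of the 50-base stretches in its transcripts, 3.77% also occurred in another annotated gene, mostly Gm17110.

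Bmpr2 (ENSMUSG00000067336.6, chromosome 1, 59763400 to 59879014) encodes the type II receptor that activates the type I partner. It was measured at 80.3 CPM, 81.6 CPM and 68.0 CPM in WT and 71.4 CPM, 69.2 CPM and 74.4 CPM in Cdh1-/-. The groups overlapped, and the log2 fold change was -0.10 (95% interval -0.30 to 0.11, adjusted p 0.581). Chromosome 1 as a whole was lower in Cdh1-/-, and Bmpr2 lay 0.23 above its median. With that median removed the value turned to 0.22 (95% interval 0.01 to 0.42, adjusted p 0.188), which was not called.

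The 2 receptor genes were compared with each other as a ratio. Per kilobase of exon, the ratio of the Bmpr1a level to the Bmpr2 level was 2.57, 3.45 and 3.81 in WT and 5.43, 6.37 and 5.74 in Cdh1-/-. The means were 3.28 ± 0.637 and 5.84 ± 0.479, and the exact two-sided permutation p was 0.1, the smallest that 3 libraries against 3 can give (0.186 adjusted over 13 shares and ratios). When each level was divided by the factor of its chromosome in that library, the ratio was 2.56 to 3.87 in WT and 2.95 to 3.48 in Cdh1-/-, with means of 3.27 and 3.22. The chromosome factor was 1.45 to 1.47 for chromosome 14 and 0.795 to 0.820 for chromosome 1 in the Cdh1-/- libraries. The ratio of Bmp4 to Bmpr1a, which share chromosome 14, was 0.279, 0.217 and 0.279 in WT and 0.433, 0.475 and 0.587 in Cdh1-/- (exact permutation p 0.1). The groups did not overlap in either ratio.

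**Figure D2:**
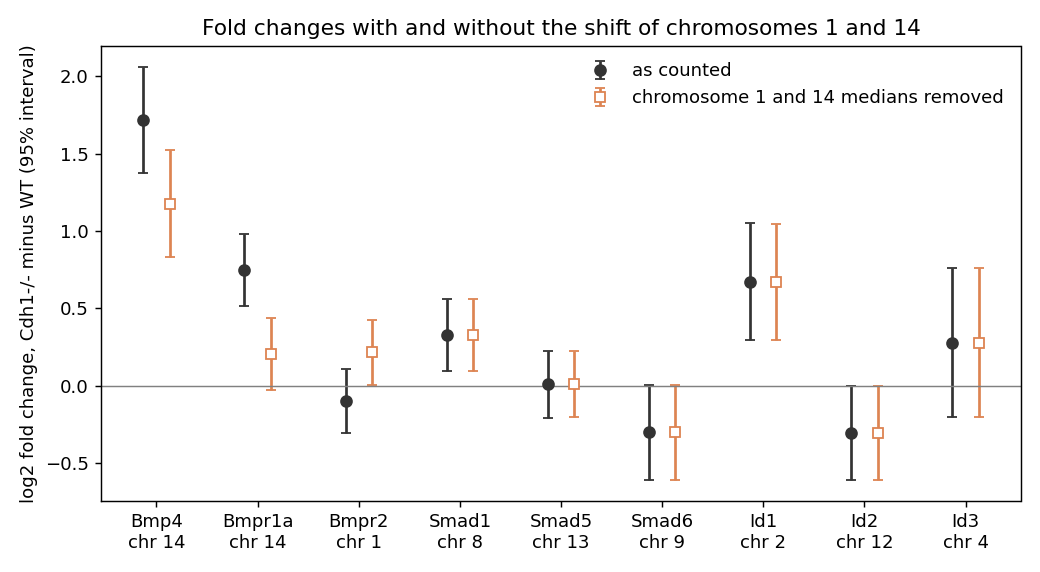
Log2 fold changes (Cdh1-/- minus WT) with 95% intervals for the 9 members, as counted (filled circles) and with the library medians of chromosomes 1 and 14 removed (open squares). Bmp4 stays well above 0 at 1.18 after removal, Bmpr1a falls from 0.75 to 0.21, Bmpr2 moves from -0.10 to 0.22, and the members on other chromosomes barely move.

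Among the signal transducers, Smad1 (ENSMUSG00000031681.16, chromosome 8, 79338395 to 79399518) was 36.6 CPM, 37.5 CPM and 45.4 CPM in WT and 48.1 CPM, 51.9 CPM and 49.8 CPM in Cdh1-/-. The groups did not overlap, but the log2 fold change of 0.33 (95% interval 0.09 to 0.56) had an adjusted p of 0.0627 and was not called. Its adjusted p in edgeR's quasi-likelihood test was 0.0289 without WT replicate C and 0.0458 without Cdh1-/- replicate A. With all libraries and no count filter it was 0.0356. The other 14 of 17 alternatives did not call Smad1, so the call depended on single libraries and on the filter. Smad5 (ENSMUSG00000021540.16, chromosome 13, 56703010 to 56742377), the close relative of Smad1, was 63.9 CPM, 63.96 CPM and 68.8 CPM in WT and 58.5 CPM, 66.4 CPM and 73.0 CPM in Cdh1-/-. Its Cdh1-/- libraries lay on both sides of the WT range, and the log2 fold change was 0.01 (95% interval -0.20 to 0.22, adjusted p 0.968). The ratio of Smad1 to Smad5 per kilobase was 0.795, 0.814 and 0.915 in WT and 1.14, 1.08 and 0.945 in Cdh1-/- (exact permutation p 0.1, adjusted 0.186). Smad9, the other receptor-regulated Smad of the pathway, stood at 1.19 ± 0.591 CPM in WT and 0.893 ± 0.539 CPM in Cdh1-/-, so Smad1 and Smad5 made up nearly all of the summed level.

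Smad6 (ENSMUSG00000036867.7, chromosome 9, 63953076 to 64022059) encodes an inhibitory Smad that BMP signals induce and that blocks the type I receptor and Smad1. It was 19.1 CPM, 19.1 CPM and 16.1 CPM in WT and 16.7 CPM, 13.5 CPM and 13.9 CPM in Cdh1-/-. WT replicate C lay below Cdh1-/- replicate A, so the groups overlapped. The log2 fold change was -0.30 (95% interval -0.61 to 0.01, adjusted p 0.199) and was not called. Relative to the sum of Smad1, Smad5 and Smad9 per kilobase, Smad6 stood at 0.361 ± 0.0609 in WT and 0.263 ± 0.0494 in Cdh1-/- (exact permutation p 0.2).

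Of the 3 Id genes among the members, 1 was called, Id1. Id1 (ENSMUSG00000042745.9, chromosome 2, 152736251 to 152737410) was 59.8 CPM, 43.6 CPM and 78.5 CPM in WT and 82.8 CPM, 88.2 CPM and 119 CPM in Cdh1-/-. The WT libraries spread widely, and WT replicate C came close to Cdh1-/- replicate A without overlap. The mean rose from 60.6 ± 17.5 CPM to 96.6 ± 19.4 CPM, 1.59 times, with a log2 fold change of 0.67 (95% interval 0.30 to 1.05, adjusted p 0.0196 in edgeR's quasi-likelihood test). The call rested on single libraries and on the test. Leaving out WT replicate A gave an adjusted p of 0.0836, leaving out WT replicate B 0.104 and leaving out Cdh1-/- replicate C 0.112, and DESeq2 gave 0.114.

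Id2 (ENSMUSG00000020644.9, chromosome 12, 25093799 to 25097140) was 34.5 CPM, 36.02 CPM and 41.7 CPM in WT and 36.3 CPM, 24.2 CPM and 30.7 CPM in Cdh1-/-. Cdh1-/- replicate A lay within the WT range and the other replicates below it. The log2 fold change was -0.30 (95% interval -0.61 to 0.00, adjusted p 0.189), and without Cdh1-/- replicate A it was -0.45 with an adjusted p of 0.0266. Id3 (ENSMUSG00000007872.3, chromosome 4, 136143497 to 136145392) was 14.04 CPM, 11.4 CPM and 19.1 CPM in WT and 11.6 CPM, 20.4 CPM and 22.0 CPM in Cdh1-/-. Here Cdh1-/- replicate A lay near the lowest WT library and the other replicates above the WT range. The log2 fold change of Id3 was 0.28 (95% interval -0.20 to 0.76, adjusted p 0.476), an interval that holds both no change and a change as large as that of Id1. It ran from 0.12 without Cdh1-/- replicate C and 0.12 without WT replicate B to 0.51 without WT replicate C and 0.51 without Cdh1-/- replicate A (adjusted p 0.0550), and was not called in any of these fits. Within WT, Id1 and Id3 had the same order of libraries, with B lowest and C highest.

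The composition of the Id pool was described per kilobase of exon, over Id1 to Id4. Id1 made up 66.4%, 60.4% and 67.3% of the pool in WT and 74.3%, 74.1% and 76.7% in Cdh1-/-. Every Cdh1-/- library was above every WT library, and the exact permutation p was 0.1 (adjusted 0.186). The share of Id2 was 18.3%, 23.8% and 17.0% in WT and 15.5%, 9.65% and 9.43% in Cdh1-/- (exact permutation p 0.1). Id3 held 14.5% ± 0.360 in WT and 12.6% ± 3.04 in Cdh1-/-, and Id4 held 1.14% ± 0.321 and 0.862% ± 0.138. The ratio of Id1 to Id2 was 3.64, 2.54 and 3.96 in WT and 4.80, 7.68 and 8.13 in Cdh1-/-. The pool as a whole was 80.1 ± 19.3 CPM per kilobase in WT and 111 ± 20.0 in Cdh1-/- (exact permutation p 0.2), with WT replicate C at 101 above Cdh1-/- replicate A at 96.1. Of the 50-base stretches in the transcripts of Id1 and Id3, 0% occurred in another annotated gene, and for Id2 it was 0.329%.

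**Figure D3:**
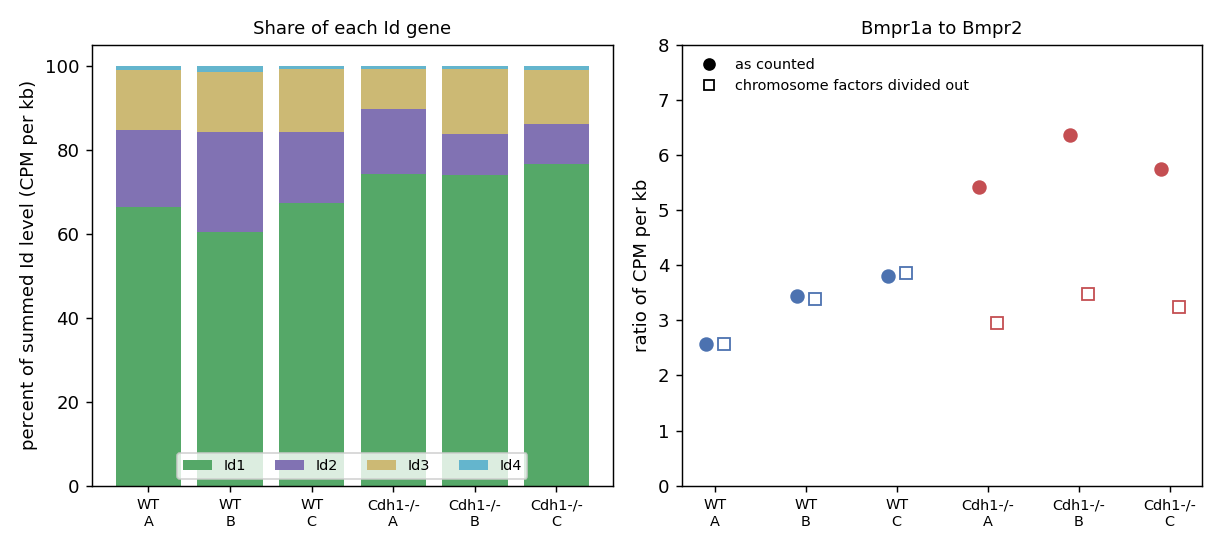
Left, the percentage of the summed Id1 to Id4 level (CPM per kilobase of exon) held by each gene in every library, as stacked bars from 0 to 100. Right, the ratio of Bmpr1a to Bmpr2 in every library, as counted (filled) and with the chromosome factors divided out (open), on an axis from 0. The Id1 share is 60.4% to 67.3% in WT and 74.1% to 76.7% in Cdh1-/-, and the receptor ratio of the Cdh1-/- libraries falls from 5.43 to 6.37 as counted to 2.95 to 3.48.

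Levels of different genes were compared per kilobase of exon. In WT the order was Id1 (52.3 ± 15.1 CPM per kilobase), Bmpr1a (19.3 ± 2.98), Id2 (15.3 ± 1.55), Id3 (11.6 ± 3.06), Smad5 (9.14 ± 0.391), Smad1 (7.70 ± 0.931), Smad6 (6.09 ± 0.580), Bmpr2 (5.94 ± 0.582) and Bmp4 (4.93 ± 0.592). The libraries of Id1 were apart from those of Bmpr1a, those of Smad5 from Smad1 and those of Smad1 from Smad6, and all other neighbours in this order overlapped. In Cdh1-/- Id1 (83.3 ± 16.7) and Bmpr1a (32.4 ± 2.14) stayed at the head, and Bmp4 stood in the third place at 16.2 ± 3.22 after being the lowest member in WT. Id3 (14.1 ± 4.37), Id2 (12.5 ± 2.49), Smad1 (9.65 ± 0.359), Smad5 (9.20 ± 1.01), Bmpr2 (5.56 ± 0.204) and Smad6 (4.95 ± 0.579) followed. There Id1, Bmpr1a and Bmp4 did not overlap with each other, nor did Smad5 with Bmpr2, while the other neighbours overlapped. These levels are as counted. In the Cdh1-/- libraries Bmp4 and Bmpr1a carry the chromosome 14 factor of 1.45 to 1.47, and Bmpr2 the chromosome 1 factor of 0.795 to 0.820. The place of Bmp4 was not tested with these factors divided out.

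Likeness of pattern was measured as the root mean square difference over the 6 libraries of log2 levels centred on the WT mean, against 12799 genes outside the pathway. Nearest to Bmp4 were Cpe (0.09), Fignl2 (0.11) and Ceacam1 (0.15), on chromosomes 8, 15 and 7. Nearest to Bmpr1a were Mboat7 (0.04), Sesn1 (0.08) and Ly75 (0.08), on chromosomes 7, 10 and 2. Nearest to Id1 were Gprc5a (0.09), Tmem132d (0.11) and Fam124a (0.13), on chromosomes 6, 5 and 14. For Id2 the nearest were Rpl28-ps1 (0.07), Hist1h1c (0.08) and Tmco1 (0.08), on chromosomes 1, 13 and 1. Chromosomes 1 and 14 were the shifted ones, and the part of that shift in these likenesses was not tested. Among the members themselves the distance from Id1 was 0.35 to Bmpr1a, 0.35 to Smad1, 0.38 to Id3 and 0.78 to Id2. The pattern of Id2 was thus farther from Id1 than that of Id3, and Id3 was not the member nearest to Id1.

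The remaining pathway was covered by 70 further genes in 6 lists, of which 56 could be tested. Of these, 12 were called higher and 2 lower, against 7.6% and 5.71% of all tested genes, and their median log2 fold change was 0.15 against -0.01. At an unadjusted p under 0.05 there were 26 of the 56, against 4622 of all 17325 tested genes, the background for such counts below. Leaving out single libraries gave 9 to 15 called higher and 0 to 2 called lower.

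**Figure D4:**
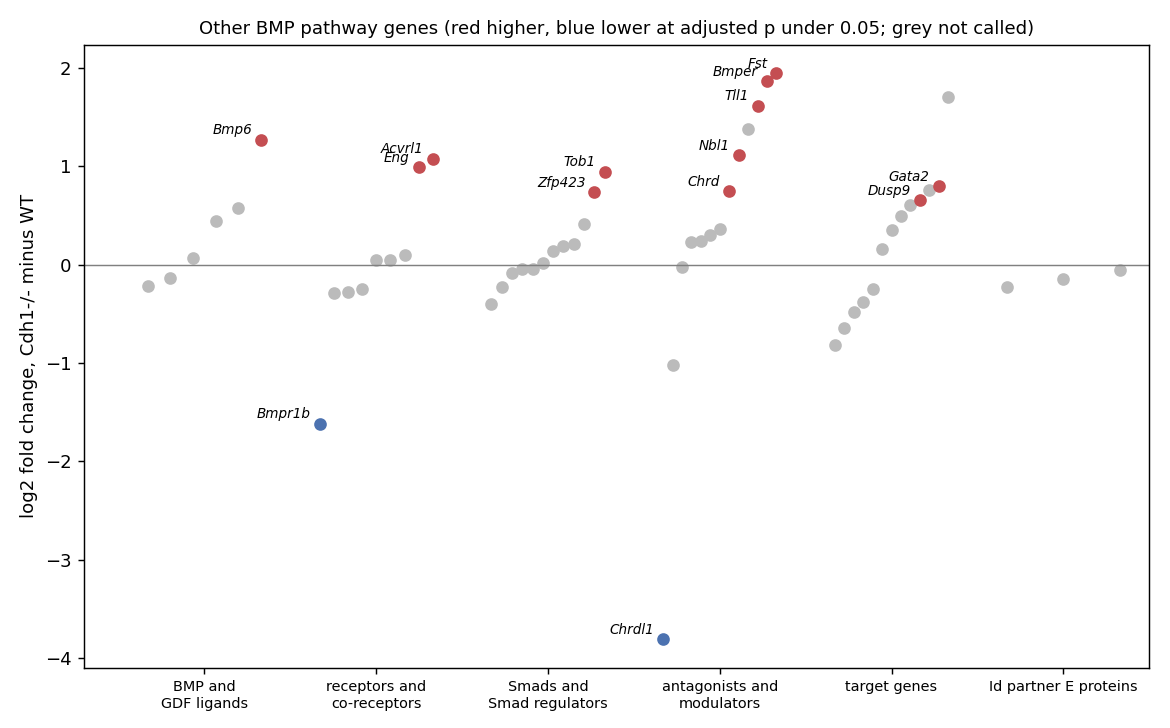
Log2 fold changes (Cdh1-/- minus WT) of the 56 tested genes of the 6 lists, sorted within each list, with called genes named in red (higher) or blue (lower) and the rest in grey. Called genes lie mostly above 0, and 5 of the 12 called higher are extracellular antagonists and modulators. The fitted value of Chrdl1 rests on counts near 0 and is not a measured fold.

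Among the other ligand genes, 6 of 13 could be tested, 1 was called higher and 0 lower, with 2 at an unadjusted p below 0.05, with a median log2 fold change of 0.25. Bmp6, which shares receptors with BMP7, was 3.92 CPM, 5.10 CPM and 4.70 CPM in WT and 13.5 CPM, 7.69 CPM and 12.1 CPM in Cdh1-/- (log2 fold change 1.27, adjusted p 0.00175). All Cdh1-/- libraries were above the WT range. Bmp7, the most abundant ligand transcript of this list, was 18.9 ± 3.20 CPM in WT and 25.7 ± 4.01 CPM in Cdh1-/- (log2 fold change 0.44, adjusted p 0.0714). Its groups did not overlap. In edgeR's quasi-likelihood test its adjusted p was 0.0416 without WT replicate B and 0.0168 with all libraries and no count filter. The other 15 of 17 alternatives did not call Bmp7. Bmp2 (1.03 ± 0.233 and 1.08 ± 0.600 CPM), Bmp8a (1.34 ± 0.723 and 2.01 ± 0.687 CPM), Bmp8b (4.13 ± 1.29 and 3.56 ± 0.854 CPM) and Gdf7 (1.58 ± 0.0557 and 1.45 ± 0.462 CPM, WT and Cdh1-/- in turn) had adjusted p of 0.463 or more.

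Of the 9 other receptor and co-receptor genes, all were tested, 2 were called higher and 1 lower, with a median log2 fold change of 0.05. At an unadjusted p under 0.05 in edgeR's quasi-likelihood test there were 4 of the 9. Eng, which encodes the co-receptor endoglin, was 24.6 CPM, 16.7 CPM and 23.2 CPM in WT and 33.7 CPM, 43.0 CPM and 51.5 CPM in Cdh1-/- (log2 fold change 0.99, adjusted p 0.00105). Acvrl1, the gene of the type I receptor ALK1 that works with endoglin, went to 7.71 ± 1.41 CPM from 3.66 ± 0.560 CPM (log2 fold change 1.08, adjusted p 0.00556). For both genes the groups were apart. Bmpr1b, the gene of another type I receptor, was 2.79 CPM, 1.92 CPM and 2.001 CPM in WT and 0.332 CPM, 0.437 CPM and 1.41 CPM in Cdh1-/- (log2 fold change -1.62, adjusted p 0.0434). Its call was lost without WT replicate A (adjusted p 0.178), B (0.102) or C (0.0905) and without Cdh1-/- replicate A (0.0778) or B (0.172). In Cdh1-/- replicate A Bmpr1b had 6 counts, a level not told apart from 0.

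All 12 genes of other Smads and Smad regulators were tested, with 2 called higher, 0 lower and a median log2 fold change of 0.08. At an unadjusted p under 0.05 the number was 5. Tob1, which encodes an antiproliferative protein that binds Smads, was 21.6 CPM, 26.7 CPM and 24.6 CPM in WT and 45.7 CPM, 48.3 CPM and 46.5 CPM in Cdh1-/- (log2 fold change 0.95, adjusted p 6.1e-05). Its Cdh1-/- libraries lay close together. Zfp423, the gene of a zinc finger cofactor of Smads in BMP responses, went to 70.5 ± 15.8 CPM from 42.3 ± 2.13 CPM (log2 fold change 0.74, adjusted p 0.00221).

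The extracellular antagonists and modulators held the most called genes, 5 higher and 1 lower of 13 tested, with a median log2 fold change of 0.36. Over all tested genes 7.6% were called higher and 5.71% lower. At an unadjusted p under 0.05 in edgeR's quasi-likelihood test there were 9 of the 13. Fst, the gene of follistatin, which binds activins and some BMPs, was 1.80 CPM, 1.67 CPM and 2.101 CPM in WT and 4.64 CPM, 9.35 CPM and 7.52 CPM in Cdh1-/- (log2 fold change 1.95, adjusted p 0.000398). Tll1, which encodes a protease related to the chordin-cleaving BMP1, rose to 9.27 ± 3.72 CPM from 3.03 ± 0.679 CPM (log2 change 1.62, adjusted p 0.00241). Chrd, the gene of the BMP antagonist chordin, rose to 8.67 ± 1.05 CPM from 5.15 ± 0.876 CPM (log2 change 0.75, adjusted p 0.0261). Members of this list that hold ligands back and a member that releases them were thus both called higher.

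Nbl1, a further antagonist gene, went from 2.14 ± 0.269 CPM to 4.64 ± 0.501 CPM (adjusted p 0.0109), and Bmper, whose product binds BMPs outside the cell, from 0.757 ± 0.346 CPM to 2.76 ± 1.55 CPM (adjusted p 0.0179). Chrdl1, a chordin relative, had at most 2 counts in any Cdh1-/- library against 0.545 ± 0.0736 CPM in WT. With 6 counts per library taken as the floor, that is at least 1.82-fold lower (adjusted p 0.0120). These low genes lost their calls with single libraries left out. Without WT replicate A the adjusted p was 0.124 for Chrd, 0.0541 for Nbl1, 0.0883 for Bmper and 0.0645 for Chrdl1, and without WT replicate B it was 0.0539 for Chrd, 0.0612 for Bmper and 0.0539 for Chrdl1. Without Cdh1-/- replicate B it was 0.0505 for Nbl1 and 0.0801 for Chrdl1, and without Cdh1-/- replicate C it was 0.0811 for Chrd, 0.152 for Bmper and 0.0727 for Chrdl1.

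Of 14 further target genes 13 were tested, 2 were called higher and 0 lower, with 5 at an unadjusted p below 0.05, with a median log2 fold change of 0.36. Dusp9, a phosphatase gene on the X chromosome that BMP signals are known to induce in mouse embryonic stem cells, was 235 CPM, 236 CPM and 292 CPM in WT and 371 CPM, 390 CPM and 443 CPM in Cdh1-/- (log2 fold change 0.66, adjusted p 0.000558). Its log2 fold change was close in size to that of Id1, and all its Cdh1-/- libraries lay above the WT range. Gata2, a transcription factor gene, went to 15.5 ± 1.121 CPM from 8.93 ± 1.39 CPM (log2 fold change 0.80, adjusted p 0.00440). Id4, the Id gene outside the 9 members, was 3.35 ± 0.177 CPM in WT and 3.75 ± 1.30 CPM in Cdh1-/- (adjusted p 0.783).

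The E protein genes, whose products Id proteins bind, were measured at the other side of that interaction. None of the 3 was called (1 at an unadjusted p under 0.05 in edgeR's quasi-likelihood test, 0 called in any of the alternatives). Tcf3, the gene of E2A, was 170 ± 9.49 CPM in WT and 153 ± 8.78 CPM in Cdh1-/- (log2 fold change -0.15, adjusted p 0.294). Tcf4 was 67.8 ± 2.92 CPM and 58.1 ± 5.99 CPM (adjusted p 0.170), and Tcf12 was 66.7 ± 4.81 CPM and 64.2 ± 7.28 CPM (adjusted p 0.802).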

How the data were processed

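RNA of 6 libraries was extracted with TRIzol and made into directional libraries, per the labels' protocols. The authors deposited raw counts per gene with exon coordinates and exon length, per the file headers. The submitters' processing notes name cutadapt 2.10, STAR 2.7.5b, featureCounts 2.0.1 and build GRCm38. The strand setting and the counting of read pairs are not given in the sources used here. Among counts of 1 to 10, 78.1% to 83.1% of a library's values were even, so 6 counts served as the floor.

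Symbols came from GENCODE M21 by Ensembl identifier, for 55141 of 55401 genes. In R 4.3.3, edgeR 4.0.16 was used with filterByExpr (smallest count 10, smallest total 15, 17325 genes kept), TMM scaling and glmQLFTest with genotype as the only term. Adjusted p-values are Benjamini-Hochberg over all tested genes, and intervals were taken from the F statistic. Medians of chromosomes 1 and 14 were taken over genes averaging 100 counts or more and, in an alternative, entered the model as offsets. Named were all members, every called gene of a list and every tested gene of a list with at most 8 tested genes, and the 3 nearest patterns of called members and Id genes. The nearest patterns of Id3 are not reported here. Members and lists were chosen with earlier results of these data known. The procedure was tested on simulated data. Alternatives were DESeq2 1.42.0, voom of limma 3.58.1, other scalings and filters, the replicate letter as a block, counts divided by 2, and each library left out. Dividing levels by chromosome factors, and the endoderm markers without chromosome 14, were added after the data were seen. Counts can also hold PCR copies, which are not separate molecules, and the floor does not allow for them.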

Additional observations from a re-analysis of the deposited data

How the results depend on the processing

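Over 17 alternatives Bmp4 stayed called, with a log2 fold change of 1.18 to 1.86. With chromosome medians removed Bmpr1a lost its call (0.21), Bmpr2 turned to 0.22, and Bmpr1b crossed the threshold (adjusted p 0.0532) at an unmoved log2 fold change of -1.62, leaving 1 other pathway gene called lower in place of 2. With counts divided by 2 and with the filter of 1 CPM in 3 libraries the number was also 1, since Chrdl1 was not tested there. Id1 was not called in DESeq2 (0.67), and Smad1 (0.35) and Bmp7 (0.47) were called without the count filter. Smad5 turned to -0.0268 under upper-quartile scaling, -0.0258 under library totals and -0.00195 under the filter of 1 CPM, and Bmp2 to -0.0804 in limma-voom. With single libraries left out, log2 fold changes ran from 0.48 to 0.91 for Id1, 0.27 to 0.44 for Smad1, -0.0606 to 0.0898 for Smad5, -0.448 to -0.149 for Id2, 0.12 to 0.51 for Id3, -0.166 to -0.0484 for Bmpr2, -0.436 to 0.420 for Bmp2, -0.390 to 0.0662 for Bmp8b, -0.356 to 0.113 for Gdf7 and -0.114 to 0.0352 for Tcf12. The called genes then numbered 1374 (without WT replicate A) to 2784 (without Cdh1-/- replicate A), against 2307, and other pathway genes called lower 0 to 2. The causes were not tested.

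The labels do not say whether the replicate letters pair the libraries. Deviations of same-letter libraries from their group means correlated at 0.189 for A, -0.101 for B and 0.383 for C. Those of libraries with unlike letters ran from -0.381 to 0.228. Each library was centred on its own group, which forces these correlations to balance each other, so they cannot decide on pairing. The fit with the replicate letter as a block gave 2686 called genes, turned Bmp2 to -0.0196 and changed no call among the members. For Id1 it lowered the standard error from 0.176 to 0.109 and the adjusted p from 0.0196 to 0.000501 in edgeR's quasi-likelihood test. Depth limited genes near 1 CPM, where the standard error of the log2 fold change was 0.49 for Bmp2, 0.38 for Gdf7 and 0.53 for Smad9, against 0.18 for Id1.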
